A study of Triticum turgidum subsp. durum with 24 samples.

Results

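The 8 genes described here are the starch synthases SS1, SS2a, SS3a and SS3b of durum wheat endosperm, each present as a homeolog on the A genome and another on the B genome. They were chosen by gene ID, as the IDs given for these names in the starch gene sheet of the study, and not by any measured value. They are 8 of 66559 transcripts in the deposited tables and 8 of the 118 starch-related genes of that sheet, and all 8 passed the filter on low counts. Endosperm was dissected from grains of wild-type (WT) Kronos, a tetraploid durum variety, at 6, 8, 10, 13, 15, 18, 20 and 30 days post anthesis (dpa). Each timepoint had 3 replicates and there were 24 libraries in all, from plants kept in controlled rooms with no treatment. Endosperms were pooled within a replicate, 6 of them up to 10 dpa, 4 in the 13, 15 and 18 dpa samples and 3 in those of 20 and 30 dpa. Replicates of a timepoint came from separate plants, but each plant gave spikes for several timepoints, so plants were shared between timepoints and the sources do not say which.

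Starch synthases transfer glucose from ADP-glucose to the end of a growing glucan chain. In cereal endosperm SS1 makes the shortest chains of amylopectin, SS2a extends these to intermediate length and SS3 makes longer chains that connect clusters of branches. In wheat, SS1 and SS2a associate with branching enzymes of class SBE2 in amyloplasts, and loss of SS2a alters chain lengths and raises the proportion of amylose. SS3a is the form of cereal endosperm, and its relative SS3b is known in rice chiefly from leaves.

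In Svevo.v1 coordinates, SS1-A1 (TRITD7Av1G035470) lies on chromosome 7A at 74615704 to 74624263 and SS1-B1 (TRITD7Bv1G005840) on 7B at 15472915 to 15482219. SS2a-A1 (TRITD7Av1G061960) lies on 7A at 142295677 to 142302375 and SS2a-B1 (TRITD7Bv1G038900) on 7B at 107291251 to 107297817. SS3a-A1 (TRITD1Av1G036690) lies on 1A at 81969602 to 81983820 and SS3a-B1 (TRITD1Bv1G048610) on 1B at 133155443 to 133167538. SS3b-A1 (TRITD2Av1G261450) lies on 2A at 706781274 to 706789139 and SS3b-B1 (TRITD2Bv1G224370) on 2B at 678173420 to 678181177. The homeologs of a pair were close in coding length for SS1 (1935 and 1968 bases for A and B), SS2a (2391 and 2397) and SS3a (4890 and 4842), and differed more for SS3b (4122 and 3831).

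Estimated counts totalled 56180606 to 115800050 per library (median 62724761). The least abundant member, SS3b-B1, had 408 estimated counts in its lowest library. In the summed level of the 8 genes, 2 libraries stood apart from their own timepoint. Replicate 1 at 10 dpa summed to 269 TPM (the share of transcripts after correction for length), against 785 and 735 TPM in the other 10 dpa libraries. Replicate 3 at 13 dpa summed to 296 TPM, against 682 and 556 TPM in the other 13 dpa libraries. Both were singled out by the level of the 8 genes themselves. Leaving them out therefore raises the summed level at their timepoints and narrows its spread. Results without them are given below as descriptions and do not test where a level was highest or which genes changed. The 8 markers of starchy endosperm (GBSSI, AGPS1, cAGPL and BT1.1 genes) were each over 1 TPM in every library, with a summed level of 385 to 652 TPM at 6 dpa, 2225 to 6503 TPM at 10 dpa, 2704 to 6059 TPM at 13 dpa and 2256 to 2702 TPM at 30 dpa. The libraries that stood apart in the synthases were also lowest in these markers, with 2225 TPM in 10 dpa replicate 1, against 6503 and 5580 TPM in replicates 2 and 3, and 2704 TPM in 13 dpa replicate 3, against 6059 and 5066 TPM in replicates 1 and 2. These markers are themselves genes of ADP-glucose metabolism and amylose synthesis, so they do not measure tissue content independently of starch synthesis. The single gene listed as a marker of pericarp and vegetative tissue, GBSSII-B1, was at 4.47 to 6.22 TPM at 6 dpa, 8.71 to 14.5 TPM at 10 dpa and 0.208 to 0.436 TPM at 30 dpa. It was at 0 in no library, and the part of either marker list in the changes below was not tested.

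The summed level of the 8 genes averaged 140.3 ± 8.67 TPM at 6 dpa (SD, n = 3 per timepoint) and 318 ± 87.8 TPM at 8 dpa. It averaged 596 ± 284 TPM at 10 dpa and 511 ± 197 TPM at 13 dpa, the timepoints with the widest spread. From 15 to 20 dpa the means were 446 ± 39.5, 504 ± 67.7 and 468 ± 69.3 TPM, and at 30 dpa the mean was 295 ± 23.98 TPM. SS2a and SS1 made up most of this sum in every library, SS3a was lower than either in every library, and SS3b was the lowest family throughout. In whole endosperm, fewer cells of a type and less RNA per cell cannot be told apart.

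SS1, the synthase of the shortest chains, was low at 6 dpa and had its highest mean TPM at 20 dpa. SS1-A1 was at 24.5, 22.03 and 18.3 TPM in replicates 1 to 3 at 6 dpa, 37.9, 51.1 and 29.0 at 8 dpa, 35.7, 96.2 and 84.9 at 10 dpa and 82.0, 67.4 and 41.2 at 13 dpa. It was then at 72.6, 57.9 and 63.2 TPM at 15 dpa, 69.7, 70.6 and 80.4 at 18 dpa, 83.4, 87.2 and 79.9 at 20 dpa and 60.4, 55.7 and 62.2 at 30 dpa. No library at 8 dpa or later overlapped those at 6 dpa, and the widest spread was at 10 and 13 dpa. SS1-B1 was at 26.1, 20.0 and 18.5 TPM at 6 dpa, 45.4, 63.6 and 35.5 at 8 dpa, 48.7, 148 and 122 at 10 dpa and 132, 105 and 61.7 at 13 dpa. Later it was at 122, 91.6 and 102 TPM at 15 dpa, 119, 118.0 and 139 at 18 dpa, 142, 141 and 128 at 20 dpa and 104, 109 and 114 at 30 dpa. In order of mean TPM, 20 and 18 dpa overlapped each other for both copies, while 18 dpa lay above 30 dpa and 8 dpa above 6 dpa without overlap. Without replicate 1 at 10 dpa and replicate 3 at 13 dpa, the highest mean TPM of SS1-A1 was at 10 dpa (90.5, n = 2), against 83.5 ± 3.65 at 20 dpa, and that of SS1-B1 was again at 20 dpa. In counts scaled to library size by the trimmed mean of M values (TMM-scaled CPM, the scale of the fold changes below), the highest mean of SS1-B1 was at 30 dpa (704 CPM, against 664 CPM at 20 dpa) and that of SS1-A1 at 20 dpa.

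SS2a, the synthase of intermediate chains, had the highest level of the families up to 18 dpa and its highest mean TPM at 10 dpa. SS2a-A1 was at 43.0, 40.4 and 38.6 TPM at 6 dpa, 99.1, 124 and 72.3 at 8 dpa, 77.1, 196 and 209 at 10 dpa and 156, 130.0 and 60.5 at 13 dpa. Later it was at 90.0, 83.7 and 89.1 TPM at 15 dpa, 85.2, 93.0 and 123 at 18 dpa, 101, 84.3 and 55.8 at 20 dpa and 25.5, 19.04 and 27.8 at 30 dpa. Its 30 dpa libraries were the lowest of the series, below those of 6 dpa without overlap. SS2a-B1 was at 42.2, 38.8 and 40.4 TPM at 6 dpa, 98.4, 133 and 78.1 at 8 dpa, 85.3, 268 and 255 at 10 dpa and 234, 202 and 83.9 at 13 dpa. It was then at 141, 120.0 and 133 TPM at 15 dpa, 129, 136 and 171 at 18 dpa, 137, 122 and 81.8 at 20 dpa and 83.7, 55.5 and 74.5 at 30 dpa. Unlike the A copy, SS2a-B1 had its lowest TPM at 6 dpa, below the 30 dpa libraries without overlap, whereas in TMM-scaled CPM both copies had their lowest mean at 6 dpa and the 30 and 6 dpa libraries of SS2a-A1 overlapped. The highest mean TPM stayed at 10 dpa with any 1 library left out for SS2a-A1 and with 22 of the 24 libraries left out in turn for SS2a-B1. In TMM-scaled CPM the highest means were at 18 dpa, 592 CPM for SS2a-A1 (against 564 CPM at 10 dpa) and 862 CPM for SS2a-B1 (against 714 CPM at 10 dpa). Without replicate 1 at 10 dpa and replicate 3 at 13 dpa, the highest means on this scale were at 10 dpa, 697 CPM for SS2a-A1 and 906 CPM for SS2a-B1 (n = 2). Leaving out the low library at 10 dpa raises the mean of that timepoint, so this does not test where the level was highest.

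SS3a, the synthase of long chains in endosperm, had similar mean TPM from 10 to 20 dpa, though replicate 1 at 10 dpa lay within the range of 8 dpa. In TMM-scaled CPM the means were higher at 20 than at 10 dpa, 300 against 162 CPM for SS3a-A1 and 338 against 223 CPM for SS3a-B1. SS3a-A1 was at 4.67, 4.68 and 4.98 TPM at 6 dpa, 12.4, 13.3 and 6.17 at 8 dpa, 8.70, 30.9 and 24.6 at 10 dpa and 31.9, 21.3 and 21.04 at 13 dpa. It was then at 26.7, 24.5 and 21.9 TPM at 15 dpa, 24.1, 23.2 and 28.6 at 18 dpa, 27.7, 21.2 and 19.6 at 20 dpa and 12.8, 11.4 and 15.1 at 30 dpa. All libraries at 15, 18 and 20 dpa lay above all libraries at 6, 8 and 30 dpa. SS3a-B1 was at 6.91, 7.99 and 8.14 TPM at 6 dpa, 17.2, 19.3 and 8.87 at 8 dpa, 11.1, 42.6 and 35.5 at 10 dpa and 41.4, 27.9 and 22.9 at 13 dpa. Later it was at 32.3, 28.2 and 25.4 TPM at 15 dpa, 27.0, 27.0 and 35.3 at 18 dpa, 31.2, 24.3 and 22.3 at 20 dpa and 13.4, 12.3 and 16.4 at 30 dpa. From 10 to 20 dpa the order of the means was not separated from the spread for either copy, so no single highest timepoint can be given. Without replicate 1 at 10 dpa and replicate 3 at 13 dpa both copies had their highest mean at 10 dpa, 27.7 TPM for SS3a-A1 and 39.1 TPM for SS3a-B1 (n = 2), and in TMM-scaled CPM of all libraries both had it at 18 dpa.

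SS3b, the relative known in rice chiefly from leaves, stayed at 0.942 to 3.19 TPM over both copies and all libraries. SS3b-A1 was at 1.39, 1.93 and 1.91 TPM at 6 dpa, 2.14, 1.98 and 1.57 at 8 dpa, 1.62, 2.27 and 2.23 at 10 dpa and 2.69, 1.63 and 2.98 at 13 dpa. It was then at 2.49, 3.07 and 2.79 TPM at 15 dpa, 3.19, 2.33 and 2.81 at 18 dpa, 3.03, 3.08 and 2.58 at 20 dpa and 2.18, 3.03 and 2.21 at 30 dpa. The libraries from 15 dpa on were all higher than those at 6 dpa. SS3b-B1 was at 1.23, 2.21 and 2.32 TPM at 6 dpa, 1.93, 1.76 and 1.12 at 8 dpa, 1.12, 1.44 and 1.71 at 10 dpa and 1.83, 0.942 and 1.47 at 13 dpa. Later it was at 1.33, 2.15 and 1.67 TPM at 15 dpa, 1.93, 1.49 and 1.71 at 18 dpa, 1.90, 2.55 and 1.90 at 20 dpa and 2.11, 2.53 and 1.79 at 30 dpa. Every timepoint of SS3b-B1 overlapped its neighbour in the order of means, and its highest mean TPM was 1.52 times its lowest, against 6.36 times for SS1-B1. In TMM-scaled CPM these ratios were 3.35 for SS3b-B1 and 12.1 for SS1-B1, and both SS3b copies had their highest mean at 30 dpa.

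**Figure D1:**
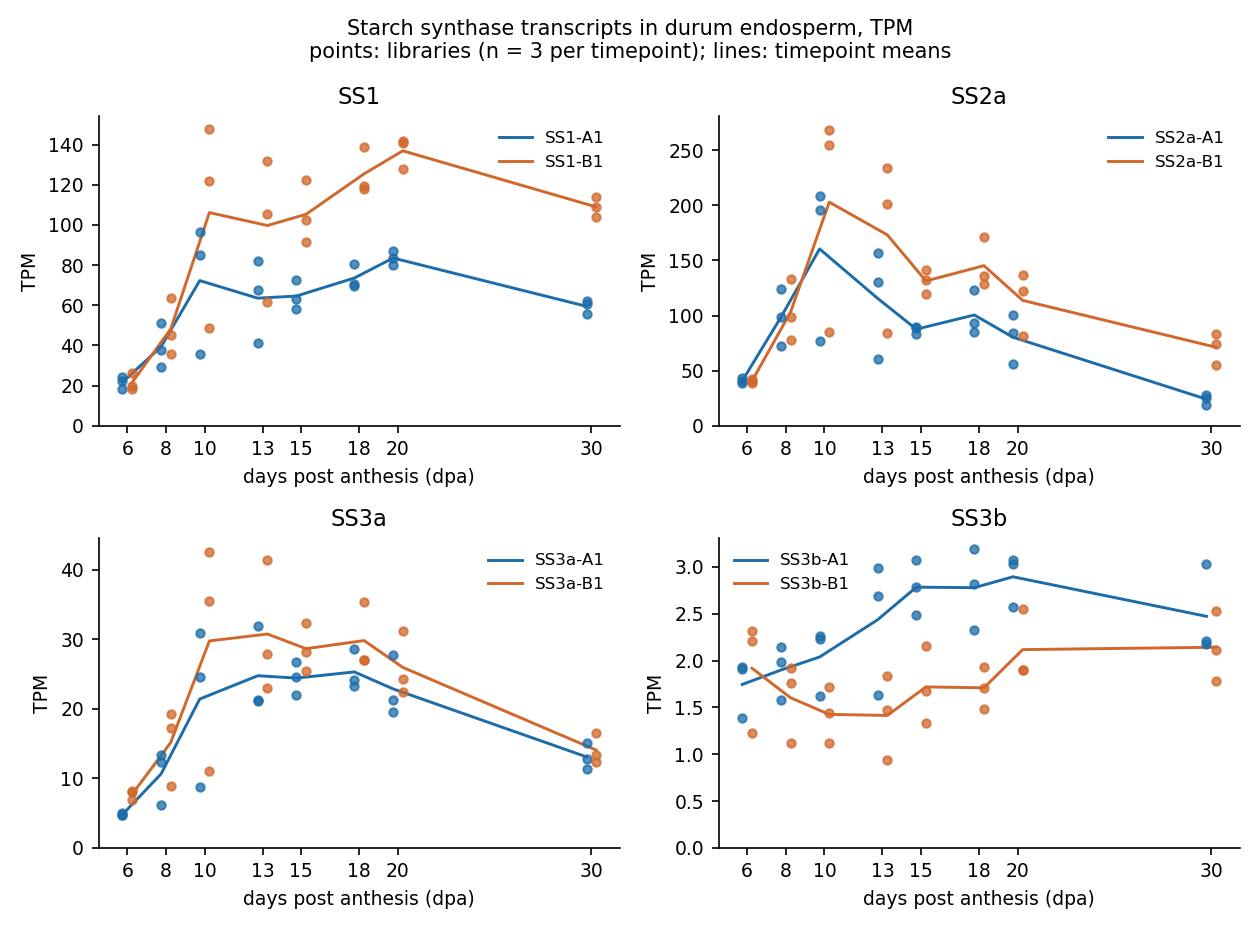
Level of each starch synthase in TPM (vertical axes) by days post anthesis (horizontal axes), with A copies in blue and B copies in orange, points for single libraries (n = 3 at each timepoint) and lines for timepoint means. SS2a-A1 reached a mean of 160.4 TPM at 10 dpa and 24.1 TPM at 30 dpa, while SS1-B1 was at 137 TPM at 20 dpa and 109 TPM at 30 dpa, and SS3b stayed at or under 3.19 TPM.

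Because all libraries have the same total TPM, a rise of some transcripts lowers the values of the others. The median gene changed by -0.14 on the log2 TPM scale at 10 against 6 dpa, and for 20 against 10 dpa by -0.59. It changed by -0.37 for 30 against 20 dpa, and over the whole course by -1.08. Comparisons between timepoints were therefore made on estimated counts after TMM scaling, which put these medians at 0, 0.03, -0.03 and -0.01, so each fold change below is relative to the median gene. A gene was called at an adjusted p of at most 0.05 over 44240 genes (edgeR quasi-likelihood test, Benjamini-Hochberg in each comparison) with more than a 1.5-fold change. All 8 genes changed over the 8 timepoints in the test of all timepoints together (edgeR, adjusted p of 3.33e-09 for SS3b-A1 to 0.000273 for both SS2a copies), where 74.4% of all genes tested did. In the 10 comparisons of timepoints, 23 of 80 member tests were called, 22 with a higher level at the later timepoint and 1 with a lower level. These tests are not independent, since the comparisons share timepoints and the copies of a pair are correlated. The share of all genes called is given with each comparison below.

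**Figure D2:**
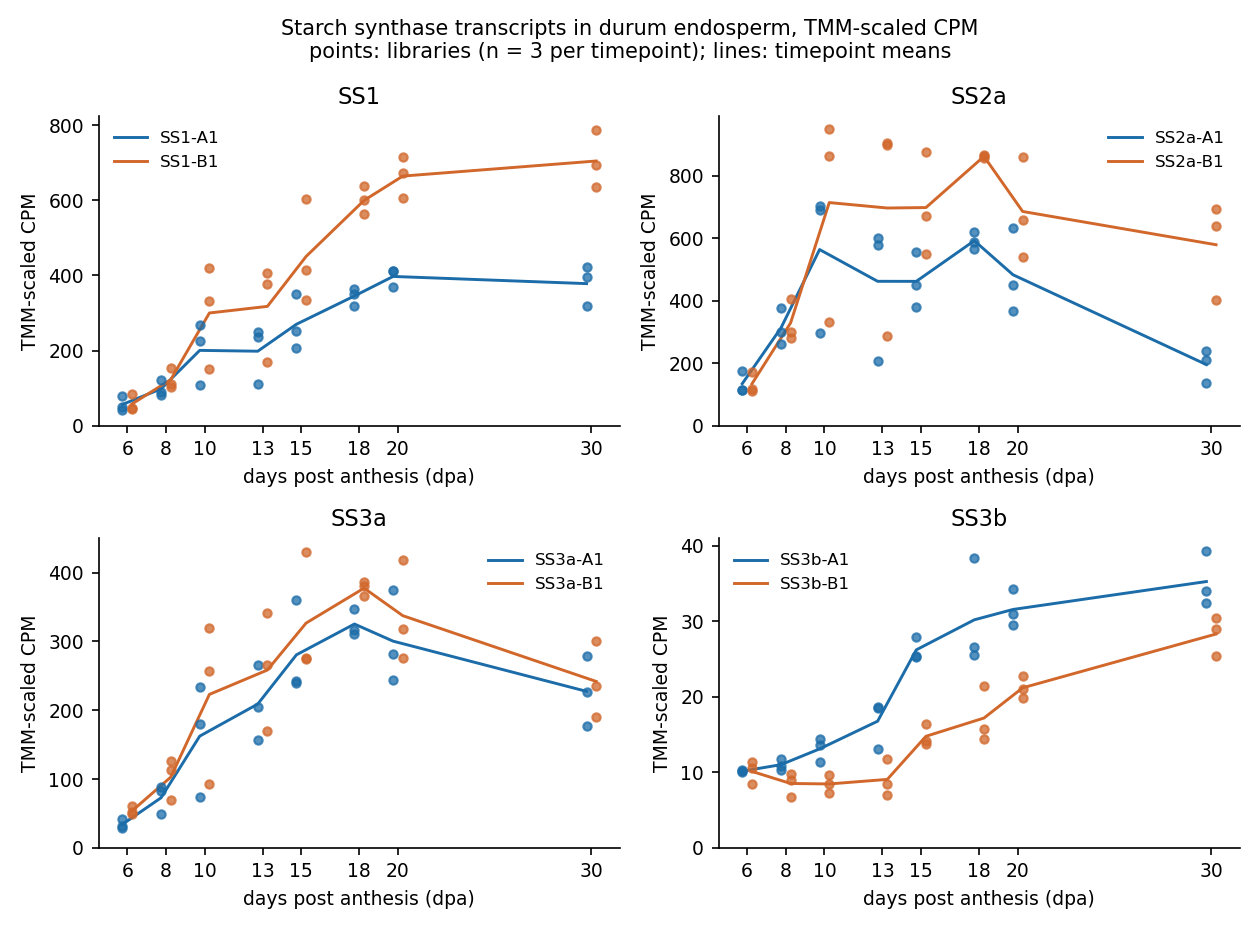
The same libraries as TMM-scaled CPM (counts scaled to library size, vertical axes, not corrected for length) by days post anthesis, with points for libraries, lines for means (n = 3) and A copies in blue, B copies in orange. On this scale, which follows the median gene, SS1-B1 averaged 704 CPM at 30 dpa and 58.0 CPM at 6 dpa, and SS2a-A1, the copy with the smallest fold change between these timepoints, averaged 196 CPM at 30 dpa and 135 CPM at 6 dpa.

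The comparison of 10 with 6 dpa asked which synthases changed early in the course. At 10 against 6 dpa, both copies of SS1, SS2a and SS3a were higher (6 of 8, against 17.6% of all genes called higher and 14.6% lower) and SS3b was not called. SS2a-B1 had 331, 948 and 863 TMM-scaled CPM at 10 dpa, against 172, 111 and 119 at 6 dpa. Its log2 fold change of 2.41 (SE 0.41, adjusted p = 0.000127) was the largest of the 8, and the groups did not overlap even with the low replicate 1. SS1-B1 had 151, 418 and 331 CPM at 10 dpa, against 84.8, 45.9 and 43.4 at 6 dpa, a log2 fold change of 2.37 (SE 0.37, adjusted p = 5.29e-05). SS3a-A1 had 73.2, 234 and 179.7 CPM at 10 dpa, against 41.3, 29.0 and 31.8 at 6 dpa, a log2 fold change of 2.25 (SE 0.34, adjusted p = 4.08e-05). The other called copies had log2 fold changes of 2.07 for SS2a-A1, 2.05 for SS3a-B1 and 1.83 for SS1-A1. SS3b-A1 had a log2 fold change of 0.37 (SE 0.16, adjusted p = 0.0729) and SS3b-B1 one of -0.26 (SE 0.19, adjusted p = 0.301), and with library totals in place of TMM SS3b-B1 was called lower (-0.66, adjusted p = 0.0377). Without replicate 1 at 10 dpa and replicate 3 at 13 dpa the same 6 genes were called, with log2 fold changes of 2.12 to 2.76.

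Between successive early timepoints the calls were fewer and rested on single libraries. At 8 against 6 dpa none of the 8 genes was called (2.57% of all genes were called higher and 0.5% lower), although 6 had an unadjusted p under 0.05 and the DESeq2 test called 4 higher. SS2a-B1 had the largest change there, with 300.0, 405 and 282 CPM at 8 dpa, against 172, 111 and 119 at 6 dpa (log2 fold change 1.3, SE 0.39, adjusted p = 0.0756). In CPM, 7 of the 8 genes had no overlap between the libraries of 8 and 6 dpa, the 6 copies of SS1, SS2a and SS3a and also SS3b-A1. SS3b-A1 had a log2 fold change of only 0.12 (SE 0.16, adjusted p = 0.774 by edgeR), and the share of all genes without overlap was not computed. The 6 copies of SS1, SS2a and SS3a were called when replicate 1 at 10 dpa and replicate 3 at 13 dpa, libraries of other timepoints, were left out of the shared fit. Single libraries also moved this count, to 3 without 10 dpa replicate 1, to 2 without 13 dpa replicate 3 and to 1 without 6 dpa replicate 1 or 8 dpa replicate 3. At 10 against 8 dpa, SS1-A1, SS1-B1, SS3a-A1 and SS3a-B1 were called higher (4 of 8, against 7.54% of all genes higher and 4.63% lower), with log2 fold changes of 1.03 to 1.29. The libraries of every one of these genes overlapped, since replicate 1 at 10 dpa lay among those of 8 dpa, and none of the 8 genes was called without 8 dpa replicate 1, 8 dpa replicate 3, 10 dpa replicate 2 or 10 dpa replicate 3. Without replicate 1 at 10 dpa and replicate 3 at 13 dpa, 6 were called, SS2a-A1 and SS2a-B1 among them. Both libraries were singled out by the level of these same genes, so the added calls are no independent support.

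From 10 to 20 dpa no step between successive timepoints was called by edgeR for any member. At 13 against 10 dpa 1 gene had an unadjusted p under 0.05 and DESeq2 called 0 (4.9% of all genes were called higher and 4.21% lower). At 15 against 13 dpa both copies of SS3b had an unadjusted p under 0.05, with log2 fold changes of 0.64 (SE 0.16, adjusted p = 0.126) for SS3b-A1 and 0.70 (SE 0.19, adjusted p = 0.187) for SS3b-B1. SS3b-A1 had 27.9, 25.3 and 25.5 CPM at 15 dpa, against 18.7, 13.1 and 18.5 at 13 dpa, with no overlap, and was the 1 member called by DESeq2 (adjusted p = 0.0211). In this step edgeR called 0.0136% of all genes higher and 0.0497% lower. At 18 against 15 dpa and at 20 against 18 dpa no member had an unadjusted p under 0.05, DESeq2 called 0, and edgeR called 0% of all genes in either direction in the earlier step and 0.208% higher and 0.00452% lower in the later one.

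Between 10 and 20 dpa both copies of SS1 and of SS3b were called, and neither copy of SS2a was. At 20 against 10 dpa, 5 of 8 genes were higher relative to the median gene (SS1-A1, SS1-B1, SS3a-A1, SS3b-A1 and SS3b-B1), where 18.2% of all genes were higher and 15.1% lower. SS3b-A1 had 34.2, 29.6 and 30.9 CPM at 20 dpa, against 11.4, 14.4 and 13.6 at 10 dpa, a log2 fold change of 1.27 (SE 0.16, adjusted p = 9.27e-06). SS3b-B1 had 19.8, 22.7 and 21.1 CPM at 20 dpa, against 7.27, 8.46 and 9.65 at 10 dpa, a log2 fold change of 1.32 (SE 0.19, adjusted p = 4.24e-05). These groups were far from overlapping. SS1-B1 had 714, 607 and 671 CPM at 20 dpa, against 151, 418 and 331 at 10 dpa, a log2 fold change of 1.15 (SE 0.35, adjusted p = 0.0154), and SS1-A1 had one of 0.99 (SE 0.32, adjusted p = 0.0207). SS3a-A1 was called at 0.89 (SE 0.33, adjusted p = 0.0385), while SS3a-B1 had 0.60 (SE 0.35, adjusted p = 0.182). Without both 10 dpa replicate 1 and 13 dpa replicate 3, 4 genes were called and SS3a-A1 was not (0.54, adjusted p = 0.145). SS2a-A1 and SS2a-B1 had log2 fold changes of -0.22 (SE 0.36, adjusted p = 0.657) and -0.06 (SE 0.39, adjusted p = 0.923). With library totals in place of TMM, none of these rises was called, both SS2a copies were called lower (-0.97 and -0.80), and SS3a-B1 changed sign (-0.13). The calls of SS1-A1, SS1-B1 and SS3a-A1 were lost without 10 dpa replicate 1 (0.69, 0.83 and 0.54), those of SS1-A1 (0.96) and SS3a-A1 (0.93) without 20 dpa replicate 3, and that of SS3a-A1 also without 10 dpa replicate 3 (0.97) or 20 dpa replicate 1 (0.70), while both SS3b copies were called with each library left out.

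In the last interval 1 copy was called lower relative to the median gene. At 30 against 20 dpa SS2a-A1 was the 1 of 8 genes called, and it was lower (7.16% of all genes were called lower and 3.08% higher). SS2a-A1 had 211, 138 and 238 CPM at 30 dpa, against 632, 451 and 367 at 20 dpa, with no overlap and a log2 fold change of -1.3 (SE 0.36, adjusted p = 0.0239). Its homeolog SS2a-B1 had 695, 402 and 641 CPM at 30 dpa, against 861, 657 and 539 at 20 dpa, with overlap and a log2 fold change of -0.24 (SE 0.39, adjusted p = 0.768). With the counts of both copies summed the pair was not called (-0.59, adjusted p = 0.367). The call of SS2a-A1 was lost without 20 dpa replicate 1 (-1.06, adjusted p = 0.0867), 30 dpa replicate 1 (-1.36, adjusted p = 0.0588) or 30 dpa replicate 2 (-1.10, adjusted p = 0.0955), each time with the same direction. With library totals only, 5 members were called lower: SS1-A1, SS2a-A1, SS2a-B1, SS3a-A1 and SS3a-B1. In TPM both copies of SS1 and SS3a, and SS2a-A1, were lower at 30 than at 20 dpa without overlap. The median gene changed by -0.37 on the log2 TPM scale in this interval, and the share of all genes without overlap was not computed.

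Over the whole course 7 of 8 genes were higher at 30 dpa than at 6 dpa relative to the median gene, against 28.7% of all genes called higher and 29.1% lower. SS1-B1 had 693, 634 and 786 CPM at 30 dpa, against 84.8, 45.9 and 43.4 at 6 dpa, a log2 fold change of 3.6 (SE 0.39, adjusted p = 1.19e-07) and the largest of the 8. SS1-A1 followed at 2.74 (SE 0.34), level with SS3a-A1 at 2.74 (SE 0.35). The remaining calls were SS3a-B1 at 2.17, SS2a-B1 at 2.11, SS3b-A1 at 1.80 and SS3b-B1 at 1.48. SS2a-A1 had 211, 138 and 238 CPM at 30 dpa, against 175, 115 and 113 at 6 dpa, with overlap and a log2 fold change of 0.54 (SE 0.36, adjusted p = 0.197). These directions depend on the scaling: with library totals, where the median gene is lower at 30 dpa, SS1-A1 (1.01), SS1-B1 (1.88) and SS3a-A1 (0.99) were still called higher, SS2a-A1 was called lower (-1.20, adjusted p = 0.000456), and SS2a-B1 (0.36), SS3a-B1 (0.42), SS3b-A1 (0.05) and SS3b-B1 (-0.27) were not called.

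**Figure D3:**
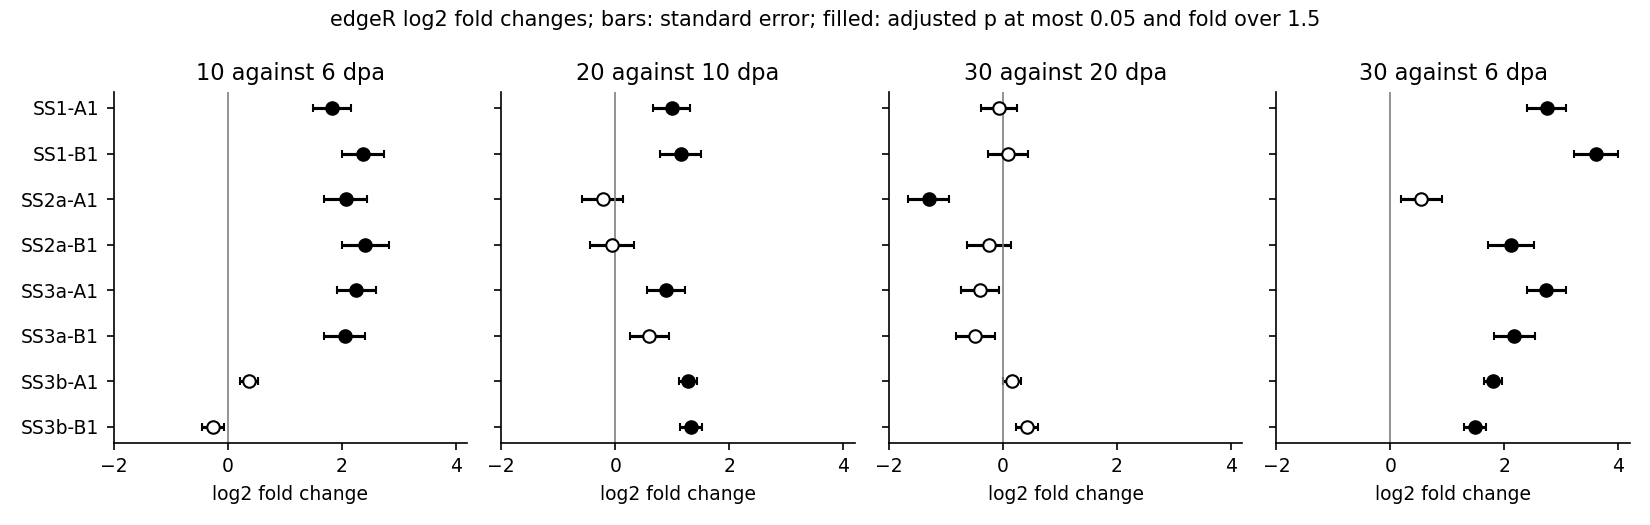
Log2 fold changes from edgeR (horizontal axes) of the 8 genes (rows) in 4 comparisons of timepoints, with bars for 1 standard error and filled circles for genes called. SS2a-A1 is the only filled circle left of 0 (-1.3 at 30 against 20 dpa), and SS1-B1 lies farthest right at 30 against 6 dpa (3.6).

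The make-up of the group can be read within each library, where the scaling between libraries has no part. SS2a, summed over its copies, made up 57.8% ± 1.31 of the TPM of the 8 genes at 6 dpa (SD, n = 3), and 63.5% ± 1.01, 60.8% ± 2.06 and 55.2% ± 5.66 at 8, 10 and 13 dpa. At 15, 18, 20 and 30 dpa its share was 49.1% ± 1.64, 48.6% ± 2.02, 40.9% ± 5.21 and 32.1% ± 4.10. SS1 made up 30.6% ± 3.02 at 6 dpa, and 27.4% ± 0.858, 30.2% ± 1.75 and 32.4% ± 2.06 at 8, 10 and 13 dpa. At 15, 18, 20 and 30 dpa it made up 38.0% ± 1.74, 39.6% ± 1.80, 47.6% ± 5.19 and 57.2% ± 3.75. SS3a held between 6.47% and 14.9% in every library, and SS3b between 0.462% and 3.18%. Shares of estimated counts, which are not divided by length, were higher for these longer genes, averaging 18.2% at 6 dpa and 19.5% at 30 dpa for SS3a and 4.32% and 2.75% for SS3b. By 30 dpa SS1 and SS2a had exchanged places.

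SS2a TPM was 1.69, 1.88 and 2.15 times SS1 TPM at 6 dpa, 2.37, 2.24 and 2.33 times at 8 dpa, 1.93, 1.90 and 2.24 times at 10 dpa and 1.83, 1.92 and 1.404 times at 13 dpa. The ratio was 1.19, 1.36 and 1.34 at 15 dpa, 1.13, 1.21 and 1.34 at 18 dpa, 1.06, 0.907 and 0.662 at 20 dpa and 0.664, 0.453 and 0.581 at 30 dpa. SS2a was above SS1 in 19 of 24 libraries, and the 5 others were replicates 2 and 3 at 20 dpa and all of 30 dpa. The libraries that stood apart at 10 and 13 dpa in level had ratios of 1.93 and 1.404. In a permutation test of the timepoint labels (two-sided by an F statistic, 100000 permutations) the ratio changed over the timepoints with p = 1e-05, the smallest that the permutations can give, and adjusted p = 6e-05 over the 6 ratios between families. The other 5 ratios changed as well, with permutation p of 0.00025 for SS2a over SS3a to 0.00213 for SS1 over SS3b (adjusted p of 0.00075 to 0.00213). SS1 over SS3a averaged 3.49 ± 0.793 at 6 dpa, 2.93 ± 0.590 at 13 dpa and 6.27 ± 0.686 at 30 dpa. All 3 libraries of 30 dpa were above all other libraries. SS3a over SS3b was lowest at 6 dpa (3.53 ± 0.775) and highest at 13 dpa (15.1 ± 4.72).

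**Figure D4:**
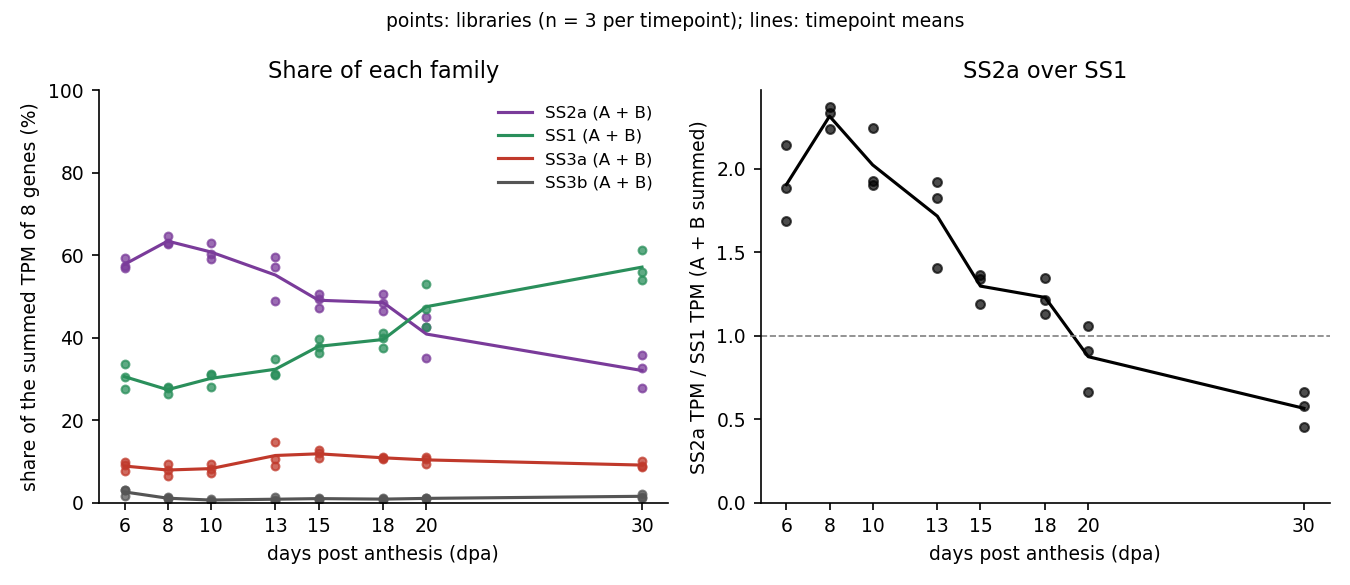
Left, share of each family (A and B copies summed) in the TPM of the 8 genes, in percent; right, SS2a TPM over SS1 TPM with a dashed line at 1; both by days post anthesis, with points for libraries and lines for means (n = 3 at each timepoint). SS2a held 57.8% at 6 dpa and 32.1% at 30 dpa, SS1 held 30.6% and 57.2%, and the ratio crossed 1 at 20 dpa.

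Homeologs of a pair were compared within libraries by the ratio of A to B TPM, which the scaling between libraries does not affect. Reads that both copies share are divided between them by kallisto, so each ratio is less certain than the sum of its pair. The ratio changed over the timepoints in all 4 pairs (limma F test on log2 count ratios, adjusted over 56 pairs of starch-related homeologs), as it did in 83.9% of those pairs. SS2a gave an adjusted p of 6.40e-10, SS1 of 2.82e-08, SS3a of 1.22e-05 and SS3b of 0.000278, and no pair lost its call with any library left out. B copies were higher in 23 of 24 libraries for SS1, 21 for SS2a and 24 for SS3a, but in 2 for SS3b.

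SS1 and SS2a both began level and moved toward the B copy, by different courses. For SS1 the A to B ratio was 0.939, 1.102 and 0.987 at 6 dpa, averaged 0.693 ± 0.0404 at 10 dpa and 0.611 ± 0.0199 at 20 dpa, and was 0.581, 0.511 and 0.546 at 30 dpa. For SS2a it was 1.02, 1.04 and 0.956 at 6 dpa, 0.903, 0.729 and 0.818 at 10 dpa and averaged 0.678 ± 0.0394 at 13 dpa. Between 13 and 20 dpa the means of SS2a stayed between 0.668 and 0.702. At 30 dpa the SS2a ratio was 0.305, 0.343 and 0.373, and no earlier library was below 0.636. The B copy accounted for 74.6% ± 1.89 of SS2a TPM at 30 dpa, against 58.8% ± 1.00 at 20 dpa (SD, n = 3).

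SS3a moved the other way, toward the A copy, over the whole course, and SS3b did so up to 13 dpa and then moved back. For SS3a the A to B ratio was 0.675, 0.586 and 0.612 at 6 dpa, averaged 0.734 ± 0.0467 at 10 dpa and 0.854 ± 0.0227 at 15 dpa, and was 0.953, 0.922 and 0.919 at 30 dpa. The B copy of SS3a was thus favoured least where that of SS2a was favoured most. For SS3b the ratio was 1.13, 0.874 and 0.826 at 6 dpa, 1.47, 1.73 and 2.03 at 13 dpa and 1.03, 1.195 and 1.24 at 30 dpa. Its mean was highest at 13 dpa (1.74 ± 0.282), and the 30 dpa libraries lay below all libraries from 10 to 18 dpa.

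**Figure D5:**
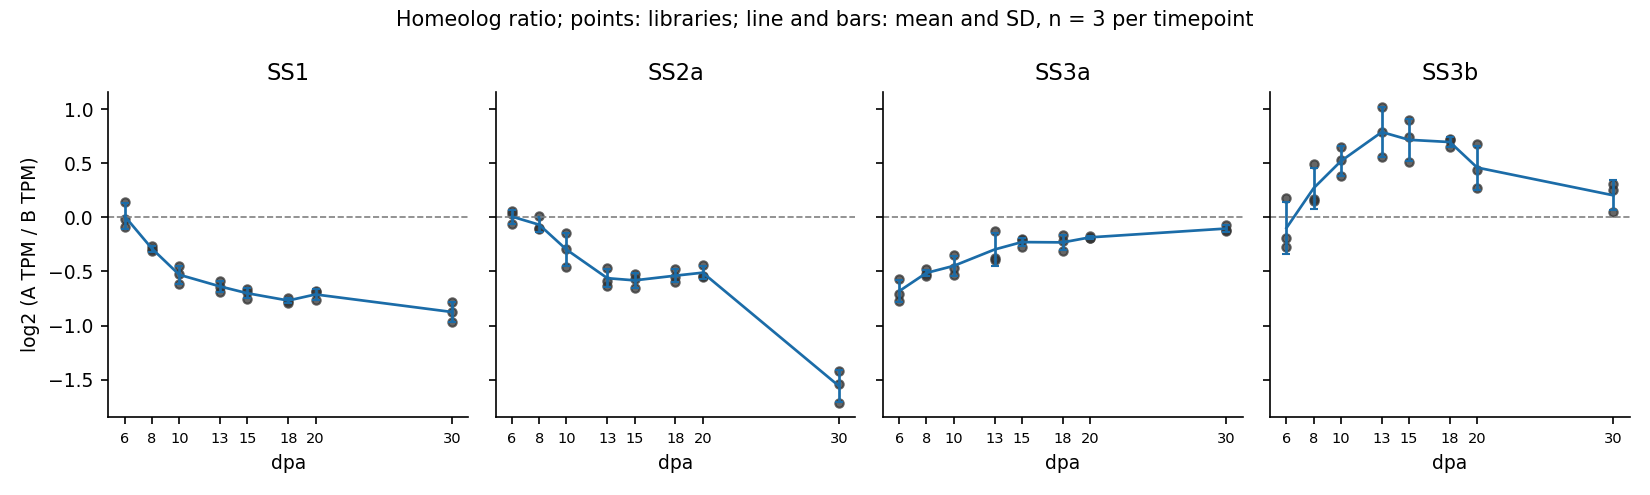
Log2 ratio of A to B TPM (vertical axis) for the 4 pairs by days post anthesis (dpa), with points for libraries and lines and bars for mean and SD (n = 3 at each timepoint); the dashed line marks equal levels. SS2a has the lowest values of the 4 pairs, -1.71 to -1.42 at 30 dpa, and SS3b is the pair that lies mostly above 0.

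Over the 24 libraries Pearson r between the 2 copies of a pair in log2 TMM-scaled CPM was 0.997 for SS1, 0.993 for SS3a, 0.889 for SS3b and 0.870 for SS2a. These and the following values are descriptions, since the libraries share their developmental stage, scaling and, in part, plants. Between families, each taken as the mean of its 2 copies, r was 0.947 for SS1 and SS3a, 0.877 for SS2a and SS3a, 0.798 for SS1 and SS3b, 0.789 for SS1 and SS2a, 0.692 for SS3a and SS3b and 0.331 for SS2a and SS3b. The SS2a copies differed in this. SS2a-B1 had r of 0.935 with SS3a and 0.893 with SS1, and SS2a-A1 had 0.749 and 0.615.

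The genes most like each family were sought by r with the mean of the 2 copies, once among all genes with a mean of at least 10 TPM and once among 115 starch-related genes at any level. SS1 was closest to TRITD5Av1G214770 (r = 0.990) and, among starch-related genes, to GBSSI-A2 (r = 0.984), a granule-bound synthase of amylose, and to DPE1-A1 (r = 0.978), a disproportionating enzyme of short glucans. SS2a was closest to TRITD5Av1G146440 (r = 0.978) and to PHS1-A1 (r = 0.963), the plastid glucan phosphorylase, and SBE2a-B1 (r = 0.960), a branching enzyme. SS3a was closest of all genes to SBE1.2-A1 (r = 0.983), a branching enzyme, followed among starch-related genes by ISA1-B1 (r = 0.980), a debranching isoamylase. SS3b was closest to TRITD4Bv1G169570 (r = 0.967) and to BGC1-A1 (r = 0.946), a protein of granule initiation, and DPE1-B1 (r = 0.921). The 3 genes known by ID lie on 5A at 570482073 to 570488170, on 5A at 409049880 to 409059413 and on 4B at 577683082 to 577686056, in the order named.

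Of the other 21 amylopectin genes of the sheet, 15 were higher and 2 lower at 10 against 6 dpa, with a median log2 fold change of 1.77, against 2.06 for the 8 synthases and 0 for all genes. All 9 branching enzyme genes were among those called higher, and of 6 isoamylase genes, not all of them in the amylopectin list, 4 were higher and 1 lower. Of all genes tested, 17.6% were called higher and 14.6% lower in this comparison. At 20 against 10 dpa 4 of the 21 were higher and none lower (median 0.32, against 0.94 for the 8 synthases and 0.03 for all genes). The 4 higher genes were near the share of all genes, of which 18.2% were called higher and 15.1% lower. At 30 against 20 dpa none was higher and 1, SS2c-A1, was lower with a log2 fold change of -0.88 (median -0.32, against -0.16 for the 8 synthases and -0.03 for all genes). Of all genes, 3.08% were called higher and 7.16% lower there.

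The remaining synthases were far lower than SS1 and SS2a, except for the GBSSI genes, which make amylose within the granule. At 6, 10, 20 and 30 dpa GBSSI-A1 averaged 51.8, 339.8, 601 and 348 TPM, and GBSSI-A2 averaged 53.3, 518, 651 and 487 TPM. GBSSII-B1 averaged 5.11, 11.7, 1.55 and 0.344 TPM at these timepoints. It was called higher at 10 against 6 dpa (log2 fold change 1.34, SE 0.30) and lower at 20 against 10 dpa (-2.15, SE 0.31) and at 30 against 20 dpa (-1.73, SE 0.32). SS2c-A1, SS2c-B1, SS2b-A1, SS2b-B1, SS4-A1 and SS4-B1 had means between 0.0977 and 2.04 TPM at every timepoint, the highest being that of SS2c-A1 at 8 dpa. SS4, known for its part in granule initiation, was not called at 10 against 6 dpa (log2 fold change 0.55, SE 0.33, for SS4-A1 and -0.02, SE 0.34, for SS4-B1). SS2b was lower in both copies at 10 against 6 dpa (-0.96, SE 0.28, for SS2b-A1 and -2.04, SE 0.54, for SS2b-B1) and higher in both at 20 against 10 dpa (1.53, SE 0.29, and 1.76, SE 0.55), relative to the median gene and at a level under 1 TPM in every library.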

How the data were processed

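RNA-seq of Kronos endosperm, 8 timepoints with 3 replicates each, was analysed from deposited tables. The authors pseudoaligned the reads to the canonical transcripts of Svevo.v1 with kallisto (version 0.46.1 in the submitters' processing notes) and deposited estimated counts, unscaled between libraries, and TPM, scaled by effective length to a fixed total per library. DESeq2 is also named there. Of 66559 transcripts, 99.9% had lengths that were multiples of 3, so lengths are coding lengths. kallisto divides reads shared by near-identical homeologs by estimation.

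Estimated counts were rounded, and the 44240 genes that reached 10 counts in 3 or more libraries were fitted in edgeR 4.0.16 (R 4.3.3; TMM, quasi-likelihood, timepoint as a factor, all 24 libraries sharing 1 estimate of spread). P-values were adjusted within each of 10 comparisons, not across them. Totals of 56180606 to 115800050 counts set the precision. Homeolog ratios were tested with limma 3.58.1 (0.5 added to each count) over 56 pairs, and family ratios by 100000 permutations in numpy 2.4.6 (Python 3.11.15). Correlations used log2 CPM with a prior count of 2. The scripts were tested on simulated data. Gene positions and IDs were taken from RefSeq's table for Svevo.v1 by locus tag, which matched 63993 transcripts.

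The members and gene lists, the tests and the libraries left out together were chosen with earlier results of these data known. Genes named were all 8 members, the other synthases of the sheet, the GBSSI, branching enzyme and isoamylase genes set beside them, and for each family the closest gene and the 2 closest starch-related genes by correlation. P-values measure the spread between replicates, which came from separate plants. Alternatives were DESeq2 1.42.0, its size factors, library totals, leaving out the 100 transcripts with the highest TPM, other filters and fold thresholds, summed homeologs, limma on log2 TPM, a replicate block and each library left out.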

Additional observations from a re-analysis of the deposited data

How the results depend on the processing

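Counts of the 8 genes called that moved by more than 1.5 times were as follows. At 8 against 6 dpa the count of 0 became 4 with DESeq2, 3 with library totals, 2 with a filter of 10 CPM, 2 and 3 with limma on log2(TPM + 0.1) and log2(TPM + 1), and 6 without both 10 dpa replicate 1 and 13 dpa replicate 3, an alternative chosen after seeing the data. At 10 against 8 dpa the 4 calls became 1 with either limma fit. At 15 against 13 dpa DESeq2 gave 1. At 30 against 20 dpa the 1 call became 5 with library totals and 0 with homeologs summed. At 20 against 10 dpa the 5 calls, all higher at 20 dpa, became 2 with library totals and 1 with either limma fit. The calls in these alternatives were all lower at 20 dpa, so none of the rises was kept. At 30 against 6 dpa the 7 calls became 4 with library totals, 4 with limma on log2(TPM + 0.1) and 3 on log2(TPM + 1). A log2 threshold of 1.5 left 0 calls at 10 against 8, 20 against 10 and 30 against 20 dpa. SS3b-B1 at 30 against 6 dpa reversed to -0.27 with library totals. The causes were not tested.

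With each library left out in turn the counts ran from 0 to 3 at 8 against 6 dpa, 0 to 6 at 10 against 8 dpa, 2 to 5 at 20 against 10 dpa and 0 to 1 at 30 against 20 dpa, and stayed at 6 at 10 against 6 dpa and 7 at 30 against 6 dpa. Of 253 recomputed fold changes of called members, 216 kept their call, 36 lost it in the same direction and 1 reversed. All 4 homeolog ratios and all 6 family ratios stayed past the threshold in every alternative run on them. Deviations of same-numbered libraries from their timepoint means had a median r of 0.0166 over 84 pairs of libraries, 19 of them over 0.1. For differently numbered libraries the median r was -0.00286 over 168 pairs, 21 of them over 0.1. The sources do not say that replicate numbers mark plants, so sharing of plants could not be checked in this way. A replicate block gave 4 calls at 20 against 10 dpa, where SS3a-A1 lost its call (0.85, adjusted p = 0.0557 by edgeR), and left the other counts as they were, and the homeolog ratios then had adjusted p of 1.07e-08 (SS2a), 3.20e-07 (SS1), 3.40e-05 (SS3a) and 0.000638 (SS3b) by limma. With 3 replicates, changes within the spread of 10 and 13 dpa were not detectable.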
